A study of Mus musculus with 12 samples.

Results

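The Hox genes are the homeodomain transcription factors that lie side by side in 4 clusters in the mouse genome, called Hoxa, Hoxb, Hoxc and Hoxd. Genes at the 3' end of a cluster carry low paralogue numbers and act in the hindbrain and neck. Genes at the 5' end carry high numbers and act in the trunk, limbs and tail. In the nervous system they give neural cells their position along the body axis, the forebrain normally keeps them silent, Polycomb complexes hold silent clusters shut, and Pbx, Meis and Pknox proteins bind DNA beside Hox proteins as cofactors. Every noncontrol probe whose gene name begins with Hoxa, Hoxb, Hoxc or Hoxd and a number was taken, which gave 49 probes for 38 genes, of 41174 probes for 27671 gene symbols on the array. The genes divided into 11 of Hoxa, 10 of Hoxb, 8 of Hoxc and 9 of Hoxd.

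RNA came from mouse neural progenitor cells of strain 129/Ola and was read on 12 one-colour Agilent arrays, with 1 array for each culture. In 10 cultures a retrovirus made from pMXs-IRESNeo carried the open reading frame of 1 factor, namely Crebzf, Esx1, Etv6, Gatad2b, Hmga2, Nfxl1, Pax6, Pdx1, Sox11 or Zfp451. The comparison cultures were 1 with the EGFP open reading frame and 1 labelled mock. Virus was given so that about 95% of cells expressed the insert, G418 was added at 24 h to remove cells without it, and harvest was at 72 h. The sources used here do not give whether the mock culture met a virus or G418. The series title speaks of interfering and non-interfering factors, but the labels do not say which factor is which. The retroviral vector drove each factor in a whole culture, so each value is an average over cells, in which fewer cells of a type and less RNA per cell cannot be told apart.

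The arrays lay on 3 slides. Slide 1 held Pax6, Hmga2, EGFP and mock, slide 2 held Gatad2b, Etv6, Esx1 and Nfxl1, and slide 3 held Crebzf, Pdx1, Sox11 and Zfp451. No control lay on slide 2 or slide 3. The 75th percentile of signal ran between 823 and 1026 units over the 12 arrays, the share of probes well above background between 62.5% and 69.1%, and 0 spots were saturated. With 1 array a group there was no replicate and no p-value, and the number of arrays limits the precision. The EGFP and mock arrays differed by a median of 0.09 log2 units over 20922 genes and by 0.14 over the Hox genes that could be tested.

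The level of a gene is the log2 of its intensity relative to the 75th percentile of its array, so a level of 0 is that percentile and most probes are negative. A gene was called on a factor array when its level passed both controls, EGFP and mock, by 2-fold or more in 1 direction and the brighter side was well above background. Differences are given in log2 units against the mean of both controls, and where either control, or the dimmer side, was not well above background a fold is a lower bound written as at least. Of the 38 Hox genes, 28 were well above background on at least 1 array and 16 on all 12. All 11 Hoxa genes were well above background on every array, against 4 of 10 Hoxb genes, 1 of 8 Hoxc genes and 0 of 9 Hoxd genes. Hoxb1, Hoxc5, Hoxc8, Hoxc9, Hoxc12, Hoxc13, Hoxd1, Hoxd10, Hoxd11 and Hoxd13 were not well above background on any array.

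Hox genes were higher than on both controls on the arrays of Pax6, Esx1, Crebzf, Pdx1, Sox11 and Zfp451, and no Hox gene was called on those of Hmga2, Gatad2b, Etv6 and Nfxl1. Of the 28 genes, 10 were higher on the Pax6 array, where 10.7% of all genes tested were higher. On the Esx1 array 13 were higher, against 10.3% of all genes. On the Crebzf array 14 were higher (9.8% of all genes), on Pdx1 12 (9.84%), on Sox11 13 (9.73%) and on Zfp451 13 (9.58%). On the arrays with no Hox call the share of all genes called higher was 0.435% on Hmga2, 0.645% on Gatad2b, 1.03% on Etv6 and 0.292% on Nfxl1. So between 35.7% and 50% of the tested Hox genes were higher on each of the arrays with calls. The median Hox difference was 0.47 on Pax6, 0.92 on Esx1, 1.22 on Crebzf, 0.70 on Pdx1, 0.80 on Sox11 and 0.68 on Zfp451, while the median over all genes on the same arrays lay between -0.21 and -0.08. On the other 4 factor arrays the median Hox difference lay between -0.12 and -0.08, and that over all genes between -0.04 and 0.02. Normexp background correction was also tried, with an offset of 50 units added to every signal, which by construction shrinks folds of dim genes. The higher Hox genes then numbered 5 on Pax6, Esx1, Sox11 and Zfp451 and 6 on Crebzf and Pdx1. The share of all genes called higher on these 6 arrays was then 5.58% to 6.13%.

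Fewer Hox genes were lower than both controls. The Esx1, Crebzf, Pdx1 and Zfp451 arrays each had 1 lower Hox gene and the other 6 factor arrays had 0. Over all genes, 7.42% were lower on Esx1, 6.3% on Crebzf, 6.64% on Pdx1 and 6.3% on Zfp451. On Pax6 and Sox11 6.41% and 6.96% of all genes were lower, and on Hmga2, Gatad2b, Etv6 and Nfxl1 0.564%, 0.999%, 0.836% and 1.17%.

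**Figure D1:**
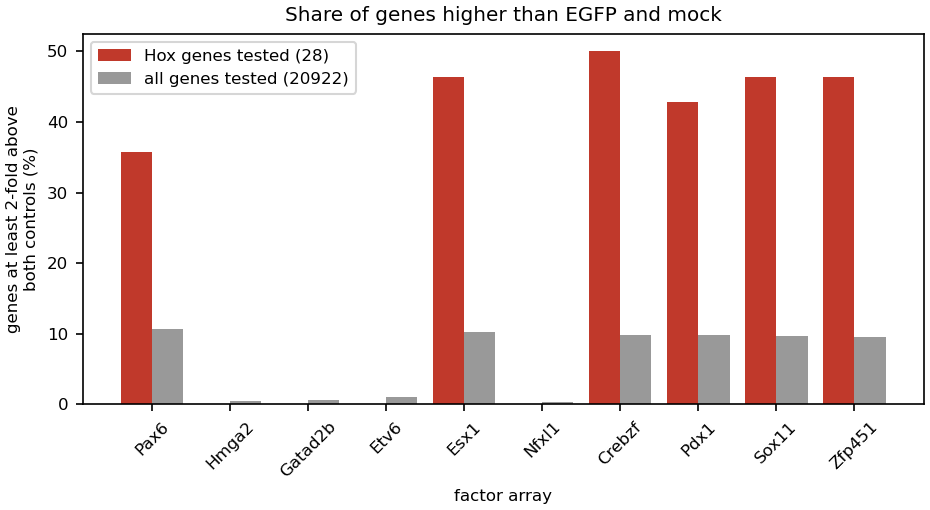
Share of genes at least 2-fold above both the EGFP and the mock array, in percent, for each of the 10 factor arrays. Red bars are the 28 Hox genes tested and grey bars all 20922 genes tested. The Hox bars reach 35.7% to 50% on Pax6, Esx1, Crebzf, Pdx1, Sox11 and Zfp451 and are at 0 on the other 4.

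A set of 10 Hox genes was called higher on all 6 of the arrays with calls: Hoxa9, Hoxa10, Hoxa11, Hoxa13, Hoxb2, Hoxb7, Hoxb9, Hoxb13, Hoxd4 and Hoxd8. Over all genes 6.73% were called higher on the same 6 arrays, which were picked because they carried Hox calls. Of the 28 genes 0 were lower on all 6, against 3.24% of all genes. With normexp background correction Hoxa9, Hoxa10, Hoxa11, Hoxb7 and Hoxb13 kept the call on all 6 arrays and Hoxd4 kept it on Crebzf and Pdx1, whereas Hoxa13, Hoxb2, Hoxb9 and Hoxd8 lost it on all 6. The 4 slide 3 arrays share their slide and hold no control, so slide and factor cannot be told apart there. Pax6 lay on the slide of both controls. Esx1 could be set against the 3 other arrays of slide 2, where 14 Hox genes were at least 2-fold above all 3 (10.1% of all genes) and 0 below all 3 (5.59% of all genes). Within slide 2 Hoxa11 on the Esx1 array was 4.42 above the nearest of these arrays.

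**Figure D2:**
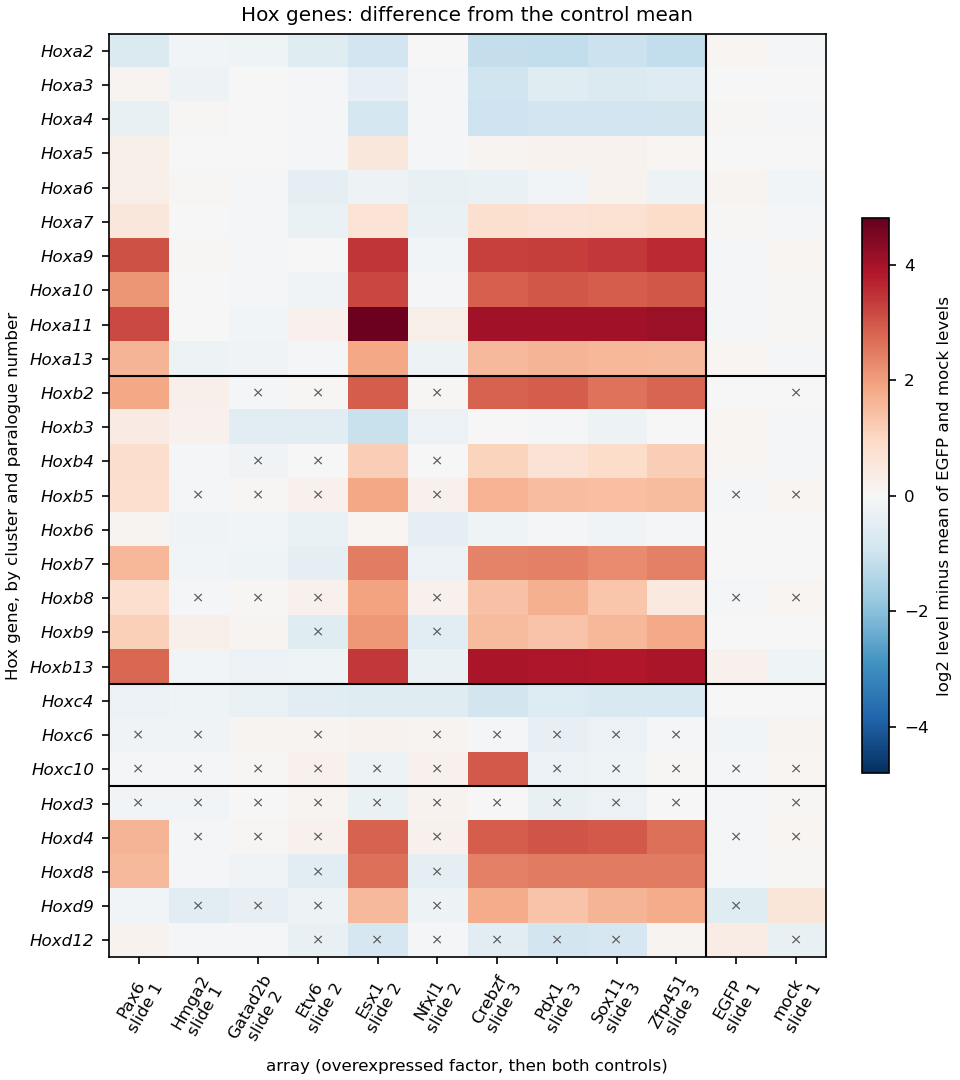
Difference of each of 27 Hox genes from the mean of the EGFP and mock levels, in log2 units, on the 12 arrays, with the factor arrays left of the controls and their slides named. Red is higher and blue lower, and a cross marks a probe not well above background. Red fills Hoxa9 to Hoxa13 and several Hoxb and Hoxd genes on Pax6, Esx1, Crebzf, Pdx1, Sox11 and Zfp451, and the largest difference is 4.72 for Hoxa11 on Esx1.

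In the Hoxa cluster the 5' genes Hoxa9, Hoxa10, Hoxa11 and Hoxa13 were higher on the 6 arrays, while Hoxa2 to Hoxa7 were not called higher on any. Hoxa9, which patterns the trunk and acts in blood stem cells, had a level of -1.03 on Pax6, -0.67 on Esx1, -0.82 on Crebzf, -0.79 on Pdx1, -0.73 on Sox11 and -0.52 on Zfp451. It had -4.05 on Hmga2, -4.17 on Gatad2b, -4.13 on Etv6 and -4.22 on Nfxl1, against -4.18 on EGFP and -4.03 on mock. The 6 arrays were thus 8.43-fold to 12-fold above the control mean, and the other 4 factor arrays lay within 0.12 of it.

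Hoxa11, which shapes the forearm and the urogenital tract, showed the largest difference of any Hox gene. Its level was 1.0 on Pax6, 2.55 on Esx1, 1.86 on Crebzf, 1.87 on Pdx1, 1.87 on Sox11 and 1.98 on Zfp451, against -2.22 on EGFP and -2.13 on mock. Hmga2, Gatad2b, Etv6 and Nfxl1 had -2.17, -2.29, -1.95 and -1.88. The 6 arrays lay 9.04-fold to 26.3-fold above the control mean. Hoxa10, which acts in the lumbar spine and the uterus, had 0.95 on Pax6, 2.03 on Esx1, 1.70 on Crebzf, 1.82 on Pdx1, 1.74 on Sox11 and 1.83 on Zfp451. On Hmga2, Gatad2b, Etv6 and Nfxl1 it had -1.19, -1.27, -1.33 and -1.24, against -1.23 on EGFP and -1.10 on mock, and the called arrays were 4.32-fold to 9.12-fold above the control mean. Hoxa13, which forms the digits and the hindgut end, had -4.16 on Pax6, -3.92 on Esx1, -4.22 on Crebzf, -4.15 on Pdx1, -4.18 on Sox11 and -4.21 on Zfp451. It had -6.02 on Hmga2, -5.94 on Gatad2b, -5.85 on Etv6 and -6.02 on Nfxl1, against -5.69 on EGFP and -5.87 on mock. The 6 arrays were 2.94-fold to 3.62-fold higher than the control mean, a smaller difference than that of Hoxa9, Hoxa10 or Hoxa11, and none of these calls of Hoxa13 held with normexp. Its second probe was called on Esx1 and Zfp451 only, with differences of 1.20 to 1.92 on the 6 arrays.

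The promoters of Hoxa9, Hoxa11 and Hoxa13 are shown because the difference splits the cluster between Hoxa7 and Hoxa9, whose probes lie 8.64 kb apart on mm7. That of Hoxa2 is shown because it differed the other way. Those of Hoxa7 and Hoxa10 are not shown. Each window runs over 300 bases from 250 before to 50 after the start of the gene, from RefSeq on GRCm38.p6. Hoxa9 is at chr6:52227321-52227620, minus strand. Hoxa11 is at chr6:52245761-52246060, minus strand. Hoxa13 is at chr6:52260831-52261130, minus strand, and Hoxa2 at chr6:52164782-52165081, minus strand. Capitals mark matches to the CCAAT box (CCAAT) and the Hox-Pbx site (TGATNNAT), on either strand.
Hoxa9: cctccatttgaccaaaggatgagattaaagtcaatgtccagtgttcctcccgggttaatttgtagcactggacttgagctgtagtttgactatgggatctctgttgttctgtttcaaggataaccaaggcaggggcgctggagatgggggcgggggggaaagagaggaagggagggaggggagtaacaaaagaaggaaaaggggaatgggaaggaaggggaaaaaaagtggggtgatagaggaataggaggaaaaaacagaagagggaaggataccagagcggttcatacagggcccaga
Hoxa11: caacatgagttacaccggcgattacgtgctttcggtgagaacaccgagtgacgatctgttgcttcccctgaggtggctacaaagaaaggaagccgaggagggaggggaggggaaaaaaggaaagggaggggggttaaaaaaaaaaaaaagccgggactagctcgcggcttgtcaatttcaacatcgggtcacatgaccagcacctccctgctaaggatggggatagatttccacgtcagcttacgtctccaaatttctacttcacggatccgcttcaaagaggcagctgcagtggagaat
Hoxa13: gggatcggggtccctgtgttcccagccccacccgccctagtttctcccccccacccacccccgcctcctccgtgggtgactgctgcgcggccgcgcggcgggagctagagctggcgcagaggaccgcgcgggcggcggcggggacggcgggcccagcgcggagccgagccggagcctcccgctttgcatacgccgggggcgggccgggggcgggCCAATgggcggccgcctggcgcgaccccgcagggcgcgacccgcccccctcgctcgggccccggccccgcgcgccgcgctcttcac
Hoxa2: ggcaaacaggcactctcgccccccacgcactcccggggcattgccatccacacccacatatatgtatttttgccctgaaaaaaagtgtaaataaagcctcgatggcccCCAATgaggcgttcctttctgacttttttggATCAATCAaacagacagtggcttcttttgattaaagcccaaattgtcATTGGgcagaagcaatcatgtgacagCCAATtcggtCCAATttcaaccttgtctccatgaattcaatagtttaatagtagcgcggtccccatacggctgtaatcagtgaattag

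Hoxa2, the selector gene of the second branchial arch and hindbrain, was called lower on Crebzf, Pdx1 and Zfp451. Its level was -3.29 on Crebzf, -3.34 on Pdx1, -3.21 on Sox11, -3.35 on Zfp451, -3.07 on Esx1 and -2.85 on Pax6. The other factor arrays had -2.29 on Hmga2, -2.37 on Gatad2b, -2.76 on Etv6 and -2.16 on Nfxl1, against -2.08 on EGFP and -2.26 on mock. Sox11 was 1.04 below the control mean and missed the call against mock, and the 3 calls were lost with normexp. Hoxa4, a neck gene, had levels between -2.14 on Crebzf and -1.10 on Hmga2, against -1.11 on EGFP and -1.20 on mock. It was not called and was at most 0.99 below the control mean, and its second probe gave differences of -1.20 to -0.71 on the 6 arrays and was called lower on Crebzf, Pdx1 and Sox11. Hoxa3, which shapes the thymus and parathyroid, had levels between -3.87 on Crebzf and -2.76 on Pax6, against -2.92 on EGFP and -2.90 on mock, and was not called. Its second probe gave 0.18 to 0.29 on the 4 slide 3 arrays, where the first gave -0.96 to -0.59. Hoxa7, a thoracic gene, had levels of 1.59 to 1.95 on the 6 arrays and 0.73 to 1.04 on the other 4 factor arrays, against 1.09 on EGFP and 1.01 on mock. The differences of 0.54 to 0.90 on the 6 arrays missed the threshold. Hoxa5 and Hoxa6 differed by at most 0.54 from the control mean on every factor array. Hoxa5, which acts in the lung and upper trunk, had -3.02 to -2.41, against -2.95 on EGFP and -2.96 on mock, and Hoxa6 had -5.30 to -4.55, against -4.69 and -4.97.

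**Figure D3:**
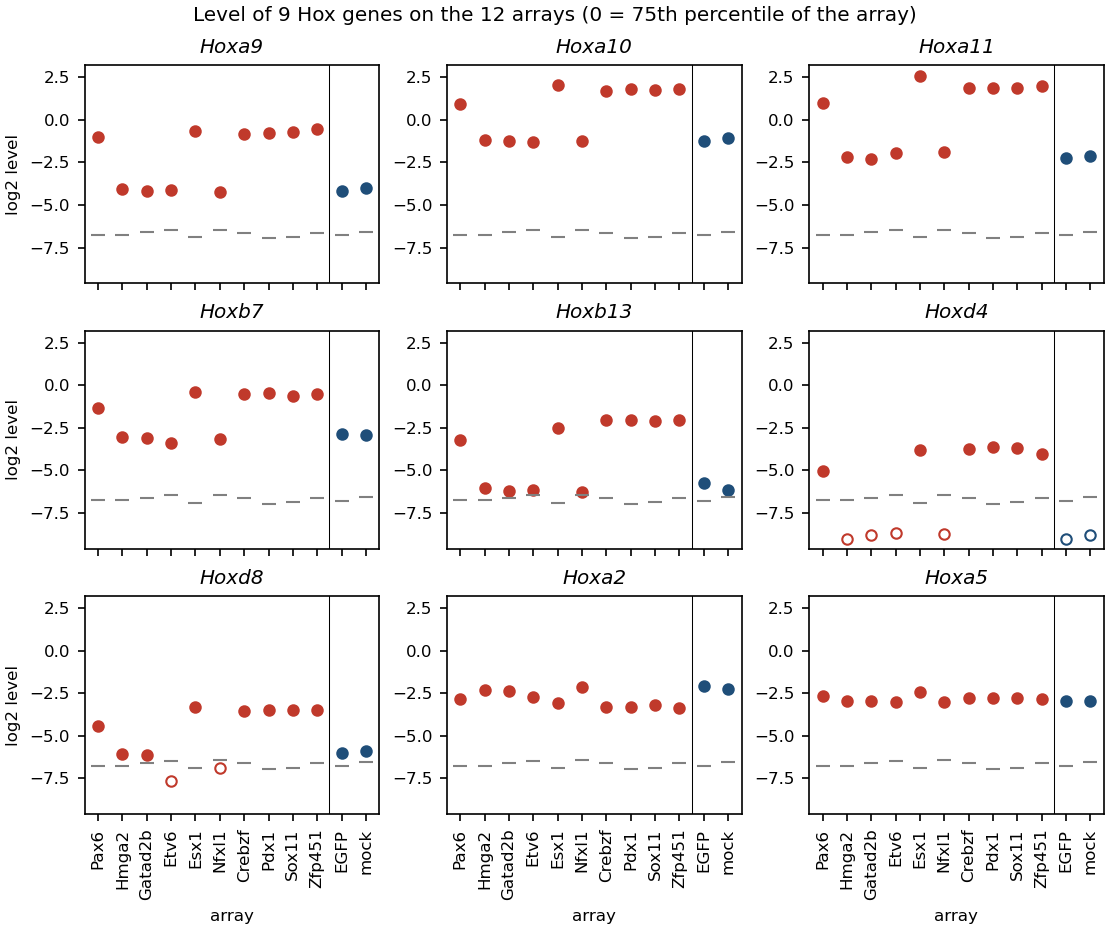
Level of 9 Hox genes on the 12 arrays, in log2 units relative to the 75th percentile of each array. Red points are factor arrays and blue points controls, open points were not well above background, and grey ticks are the floor of each array. Hoxa9, Hoxa10, Hoxa11, Hoxb7, Hoxb13, Hoxd4 and Hoxd8 lie above both controls on Pax6, Esx1, Crebzf, Pdx1, Sox11 and Zfp451, whereas Hoxa5 stays within 0.54 of the control mean.

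In the Hoxb cluster the higher genes were spread along the cluster. Hoxb13, the most 5' gene, which acts in the tail and prostate, had -3.19 on Pax6, -2.52 on Esx1, -2.03 on Crebzf, -2.04 on Pdx1, -2.10 on Sox11 and -2.03 on Zfp451. It had -6.05 on Hmga2, -6.23 on Gatad2b, -6.13 on Etv6 and -6.25 on Nfxl1, against -5.73 on EGFP and -6.14 on mock. The 6 arrays were 6.69-fold to 15.0-fold above the control mean. Hoxb7 had -1.32 on Pax6, -0.43 on Esx1, -0.51 on Crebzf, -0.48 on Pdx1, -0.62 on Sox11 and -0.49 on Zfp451, against -2.89 on EGFP and -2.91 on mock, and was 2.99-fold to 5.54-fold higher. On Hmga2, Gatad2b, Etv6 and Nfxl1 it had -3.05, -3.12, -3.37 and -3.18.

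For both Hoxb13 and Hoxb7 the lowest of the 6 arrays was Pax6. Hoxb9, a thoracic gene, had -4.77 on Pax6, -3.82 on Esx1, -4.37 on Crebzf, -4.53 on Pdx1, -4.30 on Sox11 and -4.06 on Zfp451. It had -5.64 on Hmga2 and -5.78 on Gatad2b and was not well above background on Etv6 and Nfxl1, against -5.90 on EGFP and -5.89 on mock. It was 2.18-fold to 4.21-fold higher on the 6 arrays, and its second probe was called on all of them but Esx1, where it gave 1.03. Hoxb2, which acts in the hindbrain and facial motor neurons, had -4.66 on Pax6, -3.61 on Esx1, -3.71 on Crebzf, -3.63 on Pdx1, -3.92 on Sox11 and -3.73 on Zfp451, against -6.49 on EGFP and a mock signal not well above background, so it was at least 3.65-fold to at least 7.55-fold higher. A probe on the opposite strand of Hoxb2 was not called on any array. Hoxb5, Hoxb8 and Hoxd4 were well above background only on the 6 arrays. Hoxb5 had -5.86 on Pax6, -4.81 on Esx1, -5.02 on Crebzf, -5.20 on Pdx1, -5.21 on Sox11 and -5.13 on Zfp451. It was called on all of them but Pax6, at least 2.75-fold to at least 3.62-fold higher. Hoxb8, which acts in blood cells and the spinal cord, had -5.85 on Pax6, -4.74 on Esx1, -5.28 on Crebzf, -4.98 on Pdx1, -5.35 on Sox11 and -6.21 on Zfp451. It was called on Esx1, Crebzf, Pdx1 and Sox11, at least 2.50-fold to at least 3.79-fold higher, with a second probe not well above background anywhere. Hoxb4, a blood stem cell regulator, had -5.62 on Pax6, -5.27 on Esx1, -5.39 on Crebzf, -5.74 on Pdx1, -5.55 on Sox11 and -5.27 on Zfp451, against -6.35 on EGFP and -6.53 on mock. It had -6.53 on Hmga2 and was not well above background on Gatad2b, Etv6 and Nfxl1. The differences of 1.17 on Esx1 and 1.18 on Zfp451 passed against both controls. Hoxb3, a hindbrain gene, had -4.41 on Esx1 and between -3.85 and -2.93 on the other 9 factor arrays, against -3.24 on EGFP and -3.41 on mock. It was lower on Esx1, with a difference of -1.09. With normexp every call of Hoxb2, Hoxb3, Hoxb4, Hoxb5, Hoxb8 and Hoxb9 was lost.

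Probes of 1 gene disagreed for Hoxb6. The probe used for the gene gave differences between -0.45 and 0.14 on the factor arrays. The other, well above background on all 12 arrays, gave 0.49 on Pax6 and 1.24 to 1.48 on Esx1, Crebzf, Pdx1, Sox11 and Zfp451. It was called higher on each of these but Pax6, so Hoxb6 counts as not called because the brighter probe stood for the gene.

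**Figure D4:**
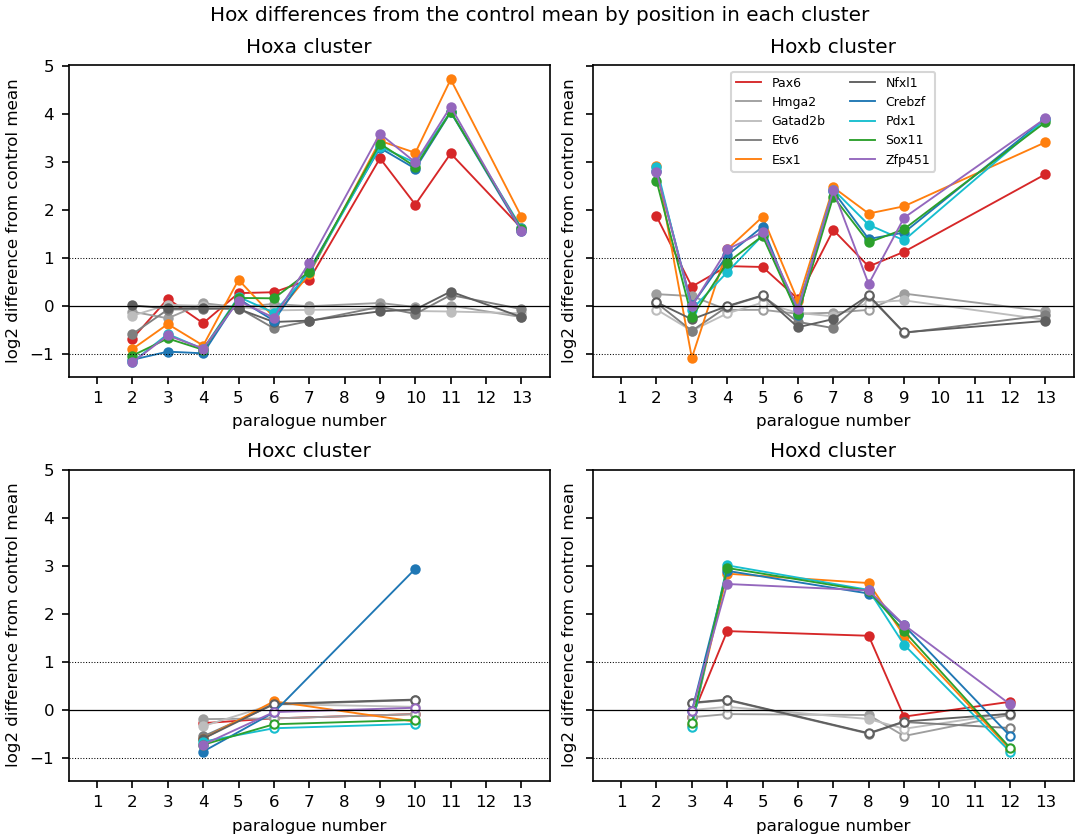
Difference from the mean of EGFP and mock, in log2 units, against paralogue number in each cluster, with 1 line for each factor array and open points where the factor array was not well above background. Dotted lines mark 2-fold. In Hoxa the lines of Pax6, Esx1, Crebzf, Pdx1, Sox11 and Zfp451 pass 2-fold at paralogue 9 and above, and in Hoxb and Hoxd they also pass it at low numbers.

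The Hoxc cluster had 1 called gene. Hoxc4 was well above background on all 12 arrays, with levels between -3.40 and -2.72 on the factor arrays against -2.50 on EGFP and -2.57 on mock. All 10 factor arrays lay below both controls, with differences between -0.86 and -0.19 and the gene was not called. Hoxc10, which acts in lumbar motor neurons, was at least 7.70-fold higher on the Crebzf array, where its level was -3.72, and not well above background on the other 11 arrays. Its second probe was not well above background on any array, Crebzf included, and its call was lost with normexp. Hoxc6 was well above background on 4 arrays and not called.

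In the Hoxd cluster Hoxd4 and Hoxd8 were called on all 6 arrays, but with normexp Hoxd8 lost the call on all 6 and Hoxd4 on 4. Hoxd4, a hindbrain and neck gene, had -5.02 on Pax6, -3.83 on Esx1, -3.77 on Crebzf, -3.65 on Pdx1, -3.71 on Sox11 and -4.04 on Zfp451 and was not well above background on the other 6 arrays, both controls included. It was at least 3.13-fold to at least 8.09-fold higher. Hoxd8 had -4.42 on Pax6, -3.32 on Esx1, -3.54 on Crebzf, -3.46 on Pdx1, -3.48 on Sox11 and -3.47 on Zfp451, against -6.01 on EGFP and -5.92 on mock, and was 2.93-fold to 6.26-fold higher. Hmga2 and Gatad2b had -6.07 and -6.15, and Etv6 and Nfxl1 were not well above background. All 6 arrays lay above every other array for Hoxd4 and Hoxd8. These arrays were picked by their Hox calls, so this is no separate result. The share of all genes that separate in this way was not counted. Hoxd9 had -6.35 on Pax6, -4.66 on Esx1, -4.45 on Crebzf, -4.85 on Pdx1, -4.56 on Sox11 and -4.43 on Zfp451, against -5.65 on mock, and was not well above background on EGFP or the other 4 factor arrays. It was called on Crebzf, Sox11 and Zfp451, and all 3 calls were lost with normexp. Its own controls differed by at least 1.13, with EGFP at the floor, the largest such gap among Hox genes. Its second probe gave differences of 1.03 to 1.83 on the 6 arrays and was called on all of them but Esx1. Hoxd12 was not called, and Hoxd3 was well above background on EGFP alone.
The windows of Hoxd4, at chr2:74721728-74722027, plus strand, and Hoxd8, at chr2:74704365-74704664, plus strand, are shown because both genes were called on all 6 arrays. Capitals mark matches on either strand to the same motifs and to the TATA box (TATAAA), the Cdx site (TTTATG) and the core of the retinoic acid receptor site (AGGTCA), and matches of different motifs may overlap.
Hoxd4: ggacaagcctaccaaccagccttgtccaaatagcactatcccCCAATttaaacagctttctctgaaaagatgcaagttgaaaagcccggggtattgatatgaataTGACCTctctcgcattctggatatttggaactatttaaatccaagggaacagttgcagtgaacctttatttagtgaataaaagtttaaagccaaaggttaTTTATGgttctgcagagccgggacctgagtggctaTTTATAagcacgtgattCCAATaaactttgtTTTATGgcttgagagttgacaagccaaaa
Hoxd8: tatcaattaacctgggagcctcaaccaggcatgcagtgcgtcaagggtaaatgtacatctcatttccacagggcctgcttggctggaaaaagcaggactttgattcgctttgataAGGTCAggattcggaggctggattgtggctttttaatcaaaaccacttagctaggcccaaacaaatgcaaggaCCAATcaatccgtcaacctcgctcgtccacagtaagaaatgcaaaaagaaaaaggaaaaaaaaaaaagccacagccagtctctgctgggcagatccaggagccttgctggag

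Across 24 windows of 22 Hox genes, CCAAT occurred in 62.5%, against 37.4% of 32851 windows of all genes. TATAAA occurred in 16.7% against 13.6%, TTTATG in 20.8% against 11.9%, TGATNNAT in 16.7% against 8.85%, and AGGTCA in 29.2% against 16.3%. The Hox windows held a median of 14.5 CpG and 57.7% GC, against 7 and 52.7%. None of the 5 motifs occurred in the Hoxa9 or Hoxa11 window. The Hoxa13 window held 1 CCAAT match, and 1 Hoxa10 window held 1 TATAAA and 1 CCAAT match and the other none. The window of Hoxa7, which was not called, held 2 TTTATG matches.

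Among the 10 genes called on all 6 arrays, the Pax6 array had the lowest of the 6 differences for 9, while it was lowest for 48.2% of the 1408 genes of the whole array called on the same 6. The Esx1 array had the highest for 7 of the 10, against 33.5% of the 1408. On slide 3 the 4 arrays spanned at most 0.47 for every tested Hox gene except Hoxc10, Hoxb8 and Hoxd12, with spans of 3.23, 1.23 and 0.99.

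Some genes that work with Hox proteins were called on the same arrays. Of 9 Pbx, Meis and Pknox cofactor genes, 4 or 5 were called higher on each of the 6 arrays, and 0 on the other 4 factor arrays. Over all genes 9.58% to 10.7% were higher on each of the 6 arrays and 0.292% to 1.03% on each of the other 4. Meis3 had levels of -3.41 on Pax6, -3.40 on Esx1, -3.05 on Crebzf, -3.07 on Pdx1, -2.96 on Sox11 and -2.91 on Zfp451, against -5.22 on EGFP and -5.69 on mock. Meis1, Meis2 and Pknox2 were called on the same 6 arrays with differences of 1.12 to 1.24 for Meis1, 1.12 to 1.45 for Meis2 and 1.82 to 2.37 for Pknox2.

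For this and the following lists, 6.73% of all genes were higher and 3.24% lower on all 6 arrays. Of 13 upstream regulators of Hox genes tested, Egr2 and Rarb were among those higher on the 6 arrays. Egr2, which acts on Hoxa2 and Hoxb2 in the hindbrain, had differences of 2.45 on Pax6, 2.69 on Esx1, 2.39 on Crebzf, 2.65 on Pdx1, 2.47 on Sox11 and 2.42 on Zfp451. Rarb, a retinoic acid receptor, had 1.34 to 1.84. Fgf8 was higher on 5 of the 6 and 0.94 on Zfp451, and Cdx2 on Etv6 only, at least 9.29-fold. Of 8 ParaHox, Evx, Meox and Gbx genes tested, Pdx1 not among them, Evx2, Meox1 and Meox2 were higher on the 6 arrays. Evx2, beside Hoxd13, was higher there by 1.93 to 2.91 and lower on Nfxl1 by a difference of -1.14. Of 26 genes that flank the clusters, Jazf1 and Evx2 were higher on all 6, a share near the 6.73% of all genes. Nfe2 and Chn1 were higher on Esx1 and the slide 3 arrays. Calcoco1 was higher on 4 arrays, Snx11 lower on Esx1 and Ttll6 lower on Hmga2 and Nfxl1, and the other 19 were not called.

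Of 27 Polycomb genes tested, Ezh1 was higher on 5 arrays (Pax6, Crebzf, Pdx1, Sox11, Zfp451) with differences of 1.25 to 1.46, and on Esx1 it was 0.91. Pcgf6 and Phc2 were each lower on 2 arrays. Of 14 trithorax and H3K27 demethylase genes, Wdr5, a subunit of the complexes that methylate H3K4, was lower on all 6 arrays with differences of -1.32 to -1.04. Of 15 forebrain and midbrain genes tested, Otx2, which marks the anterior brain, was at least 8.81-fold to at least 12.3-fold higher on the 6 arrays, and Pax6 was higher on the same 6 by 1.34 to 1.77, including the array of its own overexpression. Lhx2, a forebrain factor, was higher on Esx1 and the slide 3 arrays by 1.38 to 1.64.

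The neural progenitor label was checked against 16 markers, of which 15 were well above background on at least 1 array and Sox3 on none. The summed marker level, here and for the lists below, is the log2 of the sum of unlogged levels, so the brightest markers weigh most. It lay between 6.44 and 7.0 over the 12 arrays. Nes was called lower on Pax6, Esx1, Crebzf, Sox11 and Zfp451 by differences of -1.51 to -1.10. Of the other neural progenitor markers Pax6 was called higher on the 6 arrays, Fabp7 and Olig2 higher on Crebzf, Slc1a3 higher on Pax6, Sox1 lower on Crebzf and Msi1 lower on Zfp451. All 14 fibroblast markers were above background on at least 1 array. Their summed level was 8.93 to 9.07 on the 6 arrays, 8.90 to 9.0 on the other 4 factor arrays and 8.86 on both controls. Their median difference was 0.88 to 1.09 on the 6 and -0.12 to -0.0019 on the other 4. On each of the 6 arrays 4 to 8 of the 14 were called higher, against 9.58% to 10.7% of all genes. Of these markers Postn, Thy1 and Col1a1 were called higher on the 6 arrays, Dcn on the 6 and Etv6, and Postn lower on Hmga2. Col3a1 was called higher on 3 arrays, Pdgfrb and Prrx1 on 2 each and Fap on 1. All 11 neural crest markers were detected, and their sum was 4.17 to 4.35 on the 6 arrays, 3.32 to 3.50 on the other 4, and 3.32 on EGFP and 3.38 on mock. Of these, Pax7 and Tfap2b were called lower on the 4 slide 3 arrays and Sox10 lower on Crebzf and Zfp451, while Snai2 was higher on Esx1 and Pdx1, Ngfr on Etv6 and Pdx1, Tfap2a on Esx1 and Pax3 on Pax6. The Tfap2b spot on Nfxl1 was an outlier and left out. The sum over muscle markers, 7 of 9 detected (Myh3 and Myf5 on none), was 1.76 to 2.20 on the 6. It was 3.93 to 4.21 on the other 4, and 4.17 and 4.07 on EGFP and mock. Tnnt2 was called lower and Des higher on the 6, and Acta1 higher on Esx1 and the slide 3 arrays. Actc1 was called higher on 4 factor arrays and lower on 3, and Myod1 lower on 2. The median muscle difference was -0.37 to 0.42 on the 6 and -0.21 to -0.04 on the other 4. The sum over 9 neuron markers was 0.77 to 0.95 on the 6 and 0.10 to 0.23 on the other 4. It was 0.18 and 0.20 on EGFP and mock, and Snap25 and Stmn2 were called higher on the 6. The median neuron difference was -0.27 to -0.10 on the 6 and -0.22 to -0.08 on the other 4. Pluripotency markers (6 of 8 detected, Dppa3 and Fgf4 on none) summed to 3.12 to 3.36 on the 6, 2.56 to 3.43 on the other 4, and 2.51 and 2.57 on EGFP and mock, with Esrrb lower on the 6. Blood cell markers (6 of 8, Itgam and Hbb-b1 on none) summed to -2.27 to -2.04 on the 6, -2.53 to -2.37 on the other 4, and -1.76 and -2.48 on EGFP and mock, with Aif1 higher on the 6. Endothelial markers (4 of 6, Pecam1 and Cdh5 on none) summed to -0.99 to -0.48 on the 6, -0.08 to 0.05 on the other 4, and -0.06 and 0.08 on EGFP and mock. The part of these markers in the Hox differences was not tested. None of 9 control genes was called on any array.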

How the data were processed

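Total RNA (0.25 µg for labelling) from the 12 cultures was hybridised to one-colour Cy3 Agilent arrays, 1 array for each group. Per the file headers, each spot was deposited as an intensity with background subtracted (gProcessedSignal), written by Feature Extraction 10.7.3.1 with protocol GE1_107_Sep09, and the deposited value table equals that column with no further scaling. The sources used here give no later normalisation by the authors. Probe coordinates refer to mm7.

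Outlier spots were left out, repeated spots averaged, and each array was scaled to its 75th percentile over 43379 noncontrol spots. Values were floored at the lowest well-above-background signal of the array, -6.96 to -6.45. Probes were named through RefSeq accessions (22951 probes), current symbols (6659), synonyms (3109) or the file name (8455). The probe with the highest mean level stood for a gene. The 20922 genes that were well above background anywhere were tested. Because each group has 1 array, no test was run and a call is a size rule against both controls, which serve all factors.

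Hox genes are named by rule, with full values where called; genes of the other lists are named when called in 1 direction on 5 or more arrays, and cofactor and flanking genes when called on any. A few others (Cdx2, Pcgf6, Phc2 and neural progenitor, fibroblast, neural crest and muscle markers called on fewer arrays) were named after their values were seen. A few genes that the rule covers are counted but not reported here. The members and lists were chosen with earlier results of these data known. Promoter windows and motif counts come from RefSeq, GRCm38.p6. The script that makes the calls was tested on simulated data with known changes. Alternatives were normexp (offset 50, limma 3.58.1, R 4.3.3), quantile normalization, other floors, filters, controls, probes and folds, and centring within slides. Python 3.11.15, pandas 2.3.3 and numpy 2.4.6 were used.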

Additional observations from a re-analysis of the deposited data

Results flagged for a closer look

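A probe for Hoxaas3, a noncoding transcript of the Hoxa cluster outside the Hox gene list, was at least 2-fold above both controls on 5 factor arrays. Its differences were 1.94 on Pax6, 1.72 on Esx1, 1.99 on Crebzf, 1.42 on Sox11 and 2.17 on Zfp451, and 0.71 on Pdx1. Neither EGFP nor mock was well above background, so these are lower bounds. Hoxaas2, of the same cluster, was well above background on every array. Its differences were -0.35 to 0.24, and neither it nor a Hoxd3os1 probe was called on any factor array.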

How the results depend on the processing

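Of 79 calls of a gene on an array, none changed direction under the settings checked call by call. These were normexp, quantile normalization, no floor, each control alone and the mean of all probes. Centring, the 3-fold rule and the filter on all 12 arrays were compared by counts only. Normexp background correction, with its offset of 50 units against a floor of 7.62 to 10.7 units, ended 47 of the 79 calls. It left 5 higher Hox genes on Pax6, 5 on Esx1, 6 on Crebzf, 6 on Pdx1, 5 on Sox11 and 5 on Zfp451. It left 0 lower on Esx1, Crebzf, Pdx1 and Zfp451, against 3.21% to 4.18% of all genes. When a gene had to be well above background on all 12 arrays, 16 Hox genes remained. Of these, 6 were higher on each of the 6 arrays, against 1482 to 1680 of 16075 genes. A 3-fold rule left 5 higher on Pax6, 12 on Esx1, 9 on Crebzf, 8 on Pdx1, 9 on Sox11 and 9 on Zfp451. Over all 20922 genes 1083 to 1163 were then higher on these arrays. The 3-fold rule left 0 lower on Esx1, Crebzf, Pdx1 and Zfp451, against 243 to 396 of all genes. Centring within slides removes by construction what the arrays of slide 3 share. It left 1 higher on Crebzf and 0 on Pdx1, Sox11 and Zfp451, where 49 to 92 of all genes were higher. Pax6, on the slide of both controls, kept 10 and Esx1 kept 13, against 2240 and 2215 of all genes. Centring left 0 lower on Esx1, Crebzf, Pdx1 and Zfp451, against 11 to 1250 of all genes. Quantile normalization gave 4 lower on Crebzf and 1 on Sox11, against 1220 and 1263 of 20922 genes. With no floor, 1 was lower on Hmga2, Etv6, Nfxl1 and Sox11, and 2 on Pdx1 and Zfp451. Over all genes 203, 332, 518, 1766, 1623 and 1692 were lower on these arrays, in that order. EGFP alone gave 2 lower on Esx1, Crebzf, Pdx1 and Sox11, and mock alone 1 on Hmga2. Over all genes these were 1940, 1650, 1849 and 1899 with EGFP alone and 312 with mock alone. The mean of all probes gave 2 lower on Crebzf and 1 on Sox11, against 1128 and 1269 of 20922 genes. Apart from what centring and the normexp offset do by construction, the cause of these changes was not tested. No paired analysis was possible because each group has 1 array. Genes near the floor have differences limited by signal over background.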
